A study of Mus musculus with 12 samples.

Results

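The transcripts of 9 tubulin genes and of Atat1, which encodes the alpha-tubulin acetyltransferase, were measured in mouse left ventricle. These 10 genes were taken by symbol from the 29564 genes of the deposited tables. They comprised 4 alpha-tubulin isotypes (Tuba1a, Tuba1b, Tuba1c and Tuba4a), 5 beta-tubulin isotypes (Tubb2a, Tubb2b, Tubb4b, Tubb5 and Tubb6) and Atat1. All 10 passed the filter on low counts and were tested. Poly(A) RNA was sequenced in bulk from 12 wild-type mice labelled C57BL6, 4 in each group, and each mouse gave 1 library. Control-Veh mice were non-failing and received vehicle. HFpEF-Veh mice had heart failure with preserved ejection fraction, induced by a high-fat diet (HFD) together with L-NAME, which blocks nitric oxide synthase, and also received vehicle. The third group, HFpEF-TYA-018, was put through the same model and was given the HDAC6 inhibitor TYA-018 orally (15 mg/kg). HDAC6 is a cytoplasmic deacetylase. The series title speaks of a single dose, whereas the labels' treatment protocol describes daily dosing for weeks. The published study sequenced RNA of hearts taken hours after a single dose, before heart structure or function improved. Its long-term series also held a group given empagliflozin, and none of these 12 mice belongs to such a group. The groups here thus match the single-dose experiment, although the labels do not settle it. No age, sex or sequencing batch was given in the labels, and each group's mice carried a run of neighbouring numbers, so housing or processing order and group cannot be told apart. The letters C, V and T name the libraries of the control, vehicle-treated HFpEF and TYA-018-treated HFpEF mice, numbered from 1 to 4 by animal number.

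Microtubules are polymers of dimers of 1 alpha- and 1 beta-tubulin, and several genes encode near-identical isotypes of each. In heart muscle cells they form a lattice around the myofibrils and the nucleus, and stable, modified microtubules are known to add stiffness to the cell. Alpha-tubulin is acetylated on a lysine inside the microtubule by ATAT1, and HDAC6 and SIRT2 remove this mark. Since the mark lies on the protein, RNA sequencing does not measure acetylation. The comparison of the groups therefore addresses only whether the supply of tubulin messages and of the acetylating enzyme's message differed with the model and with the HDAC6 inhibitor. Many cells are known to hold tubulin messages at a level set by their free tubulin, through decay of the messages during their translation.

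The 3′ end of the coding sequence encodes the acidic tail of the protein, which carries glutamylation and, in alpha-tubulin, tyrosine removal.

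Tuba1a (chr15:98949837-98953703, minus strand), Tuba1b (chr15:98931425-98934565, minus strand) and Tuba1c (chr15:99029891-99038110, plus strand) lie next to each other. Over the whole coding sequence Tuba1a was 98.3% and Tuba1c 97.9% identical to Tuba1b. Tuba4a (chr1:75214228-75219865, minus strand) was 85.0% identical. Of the distinct runs of 31 bases in the annotated transcripts of Tuba1a, 77.0% also occurred on the same strand in another gene. For Tuba1b this share was 68.9%, for Tuba1c 55.3% and for Tuba4a 2.80%. How counts were split among Tuba1a, Tuba1b and Tuba1c is therefore uncertain, whereas counts of Tuba4a rested almost wholly on its own sequence. Tuba1a and Tuba1b also overlap the annotated gene Gm49450 on the same strand, which was not among the genes analysed here.

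For 4 beta isotypes this stretch is shown because it encodes the tail by which the isotypes are commonly told apart. It holds only a small part of the differences between the genes. The last 60 coding bases, stop codon included, are given 5′ to 3′ on the coding strand from GENCODE M21 transcripts (GRCm38). Capitals mark the bases with no identical partner in Tubb5, in an alignment of each whole coding sequence with that of Tubb5. They include bases opposite a gap, and the place of a gap can differ from pair to pair.
Tubb5: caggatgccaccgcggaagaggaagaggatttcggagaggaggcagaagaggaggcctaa
Tubb2a: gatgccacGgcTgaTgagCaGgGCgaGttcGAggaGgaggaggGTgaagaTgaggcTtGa
Tubb2b: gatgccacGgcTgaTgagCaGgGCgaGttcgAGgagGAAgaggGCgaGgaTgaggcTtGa
Tubb4b: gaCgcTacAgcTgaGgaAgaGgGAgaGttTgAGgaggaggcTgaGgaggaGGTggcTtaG

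Tubb2a (chr13:34074274-34078007) and Tubb2b (chr13:34126748-34130466) are neighbours on the minus strand and were 96.5% identical over their coding sequences. In Tubb2a 56.4% of runs of 31 bases, and in Tubb2b 43.1%, occurred in another gene, so the split between these neighbours is uncertain too. Tubb4b (chr2:25222160-25224702, minus strand) shared 48.6% of its runs, mostly with the pseudogene Tubb4b-ps1, whose level was at most 0.180 CPM in any library. Tubb5 (chr17:35833921-35838306, minus strand) shared 3.47% and Tubb6 shared 3.24%. Atat1 (chr17:35897595-35910075, minus strand) shared 0.0837%. Tuba1b, Tuba4a, Tubb4b and Atat1 overlap other genes on the opposite strand, and whether the counting used strand is not given in the sources used here.

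Promoters are shown for Tubb5 and Tubb2a, which had the smallest p of the 10 genes between HFpEF-Veh and Control-Veh. RefSeq promoter sequences on GRCm38.p6 were found for 8 of the 10 genes, and 250 bases before the start were searched. For Tuba1a, Tuba1b and Tuba4a every such window reached more than 10 bases into the annotated gene. Motifs searched on both strands were the CCAAT box (CCAAT), the GC box (GGGCGG), the TATA box (TATAAA) and the cell cycle homology region (TTTGAA), and none of these overlaps another in the sequences shown. Capitals mark matches. The Tubb5 sequence (chr17:35838307-35838551, minus strand) stops where the annotated gene begins.
Tubb5 promoter: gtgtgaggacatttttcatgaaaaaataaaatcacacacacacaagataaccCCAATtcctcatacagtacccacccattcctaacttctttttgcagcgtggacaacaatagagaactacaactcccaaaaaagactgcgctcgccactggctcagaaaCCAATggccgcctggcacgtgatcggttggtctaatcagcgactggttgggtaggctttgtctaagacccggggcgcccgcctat
Tubb2a promoter (chr13:34078009-34078258, minus strand): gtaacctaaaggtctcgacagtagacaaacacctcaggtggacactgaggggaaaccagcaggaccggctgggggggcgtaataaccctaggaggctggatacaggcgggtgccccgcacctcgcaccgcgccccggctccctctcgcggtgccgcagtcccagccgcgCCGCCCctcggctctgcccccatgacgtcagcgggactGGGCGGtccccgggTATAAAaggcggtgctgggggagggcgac

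Tubb5 held 2 CCAAT boxes and no other motif searched. Tubb2a held 2 GC boxes and 1 TATA box and no CCAAT box. A CCAAT box occurred in 4 of the 8 genes (Tuba1a, Tuba1c, Tubb4b and Tubb5), and in 33.9% of all 32851 promoters of the same length. A gene counted if any of its promoters matched, whereas the shares of all are per promoter. A GC box occurred in 6 of 8 (32.7% of all), a TATA box in Tubb2a alone (12.4% of all) and TTTGAA in Tubb4b alone (16.0% of all). The 2 genes thus shared none of these motifs in the window.

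Total estimated counts per library ranged from 61.2 to 83.9 M, with the highest total in T1. Levels are given as CPM, the counts scaled to a common library size with TMM (trimmed mean of M values), with mean ± SD and n = 4 mice per group. Tests are edgeR quasi-likelihood F tests in 1 model of the 12 libraries. Adjustment was by Benjamini-Hochberg over 14333 genes, and an adjusted p under 0.05 counted as a call. Mitochondrially encoded genes took 43.1% to 47.7% of counts in V1 to V4, 37.0% to 40.6% in C1 to C4 and 35.4% to 41.2% in T1 to T4. The TMM fit without these genes and globins gave the same calls among the 10 genes. The 2 comparisons that follow share the HFpEF-Veh libraries, so a value high by chance in those libraries would raise the first difference and lower the second.

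In HFpEF-Veh hearts, 6 of the 9 tubulins were higher than in Control-Veh: Tuba1a, Tuba1b, Tuba1c, Tubb2a, Tubb5 and Tubb6. None of the 10 genes was called lower. Over all genes tested, 21.2% were called in this comparison, 10.9% higher and 10.3% lower. The median log2 fold change of the 10 genes was 0.45, against -0.01 over all genes tested. In 7 of the 10 genes every HFpEF-Veh library was above every Control-Veh library, as was the case for 12% of all genes. In 23.5% of all genes these groups did not overlap in one direction or the other, and 11.5% lay lower without overlap. The plot of CPM by library shows this separation for each gene.

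**Figure D1:**
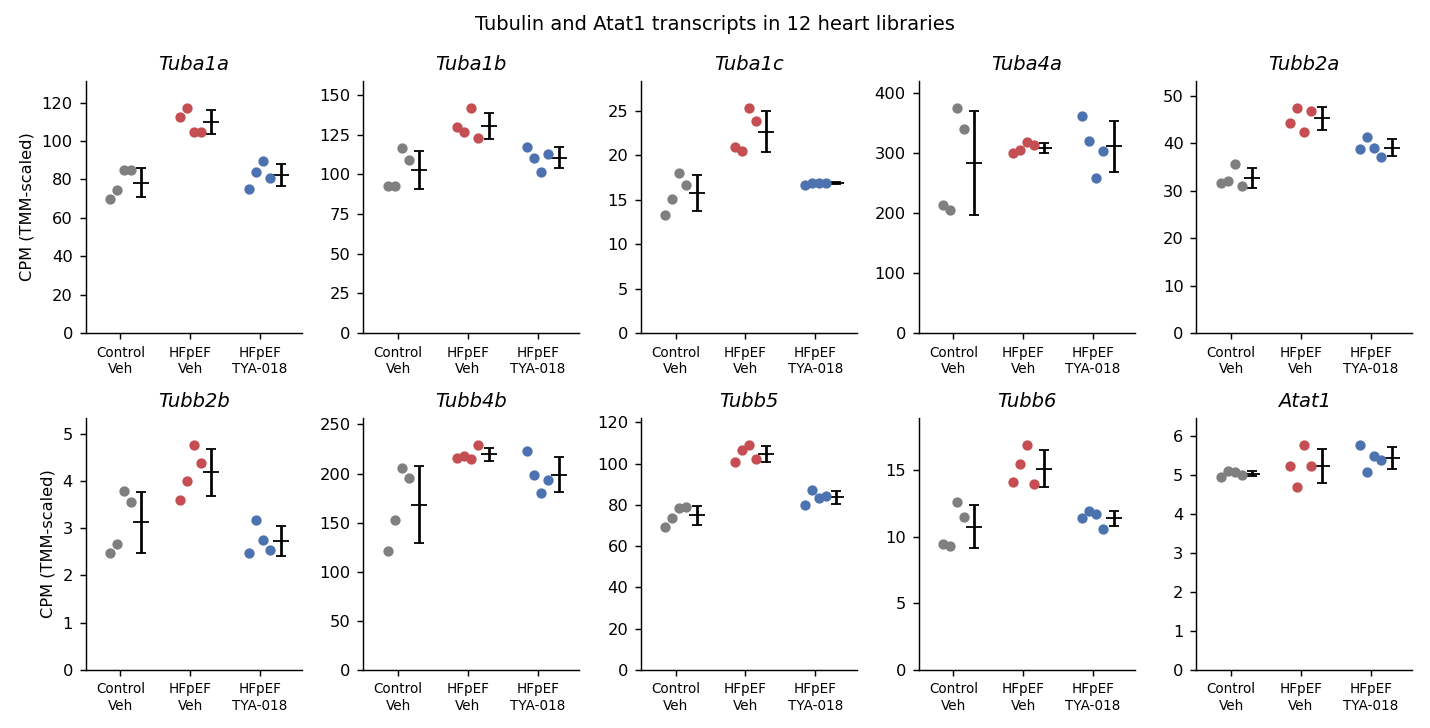
CPM (vertical axis, from 0) of the 10 genes in each of 12 libraries, by group; coloured points are mice, in the order of their animal numbers, and black bars are mean ± SD (n = 4). Tubb5 lay between 101 and 109 CPM in HFpEF-Veh, above 69.1 to 78.8 in Control-Veh and 79.7 to 87.3 in HFpEF-TYA-018, whereas Tuba4a spread from 206 to 375 CPM within Control-Veh.

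Among the alpha isotypes, Tuba1a, a main isotype of neurons and also found widely, was at 69.8, 74.3, 84.8 and 84.7 CPM in C1 to C4 and at 113, 117, 105 and 105 CPM in V1 to V4. The groups did not overlap, and Tuba1a was 1.40-fold higher in HFpEF-Veh (log2 fold change 0.49 ± 0.08 SE, adjusted p = 0.00184). Tuba1b, the widely expressed isotype, was at 93.0, 92.9, 117 and 109 CPM in Control-Veh and 130, 127, 142 and 123 CPM in HFpEF-Veh. Its lowest HFpEF-Veh library was above its highest Control-Veh library, and it was 1.27-fold higher (0.34 ± 0.08, adjusted p = 0.0134). Tuba1c, the least abundant of the alpha isotypes here, was at 13.3, 15.0, 17.98 and 16.7 CPM in Control-Veh and 20.9, 20.5, 25.3 and 23.9 CPM in HFpEF-Veh. It was 1.44-fold higher, the largest fold of the 10 genes (0.53 ± 0.09, adjusted p = 0.00303).

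Summed over Tuba1a, Tuba1b and Tuba1c, which does not depend on how reads were split within this trio, the level was 197 ± 21.1 CPM in Control-Veh (range 176 to 219.6), 263 ± 8.34 in HFpEF-Veh (252 to 272) and 209.7 ± 1.41 after TYA-018 (208 to 211). The 3 genes together were thus highest in HFpEF-Veh, with no overlap with either other group. On the TPM scale the same sum was higher, not lower, after TYA-018 (log2 ratio 0.08, no test). Tuba4a, an isotype known from striated muscle whose gene lacks the final tyrosine codon, behaved otherwise. It was at 213, 206, 375 and 339.6 CPM in C1 to C4 and 301, 304, 319 and 313 CPM in V1 to V4. C1 and C2 were below and C3 and C4 above every HFpEF-Veh library, and the log2 difference was 0.12 ± 0.18 (adjusted p = 0.658).

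Among the beta isotypes, Tubb5, the common isotype of dividing and non-muscle cells, was at 69.1, 73.7, 78.7 and 78.8 CPM in Control-Veh and 101, 107, 109 and 102 CPM in HFpEF-Veh. It was 1.40-fold higher, with the smallest p of the 10 genes (log2 fold change 0.48 ± 0.06 SE, adjusted p = 0.000521). Tubb2a was at 31.7, 32.1, 35.7 and 31.01 CPM in Control-Veh and 44.4, 47.5, 42.4 and 46.9 CPM in HFpEF-Veh, again with a gap between the groups. It was 1.39-fold higher (0.47 ± 0.06, adjusted p = 0.000681). Tubb6, an isotype found in many tissues at low level (18:67390717-67402749, plus strand), was at 9.44, 9.32, 12.6 and 11.5 CPM in Control-Veh and 14.1, 15.4, 16.9 and 13.96 CPM in HFpEF-Veh. It was 1.41-fold higher (0.49 ± 0.10, adjusted p = 0.00679).

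Tubb4b and Tubb2b had differences of like size that did not pass the threshold. Tubb4b, the most abundant beta isotype here, was at 121, 152, 205 and 195 CPM in Control-Veh and 216, 218, 215 and 229 CPM in HFpEF-Veh (log2 difference 0.38 ± 0.14, adjusted p = 0.0654). Its groups did not overlap, but the Control-Veh libraries were spread widely. Tubb2b was at 2.48, 2.67, 3.78 and 3.56 CPM in Control-Veh and 3.59, 4.01, 4.77 and 4.37 CPM in HFpEF-Veh, where C3 overlapped V1 (0.42 ± 0.16, adjusted p = 0.0716). Both genes were called with DESeq2 (adjusted p = 0.0213 for Tubb4b and 0.0486 for Tubb2b), and both were called by edgeR when C3 was left out, which raised the count to 8 of 10. The 6 calls held when any of the 8 libraries was left out. They depended on the unit, however. With limma on log2(TPM + 1) none was called, and only 1 (Tuba1a) after rescaling without mitochondrially encoded genes.

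Atat1 was at 4.95, 5.09, 5.06 and 4.99 CPM in Control-Veh and 5.23, 4.69, 5.77 and 5.22 CPM in HFpEF-Veh. The HFpEF-Veh libraries surrounded those of Control-Veh, and the log2 difference was 0.06 ± 0.08 (adjusted p = 0.663). Atat1 rested on 278 to 542 counts per library. Hdac6, which encodes the main tubulin deacetylase, fell by 0.36 on the log2 scale (adjusted p = 0.0117), from 15.0 ± 0.595 to 11.6 ± 0.975 CPM. Sirt2, the other deacetylase of tubulin, was at 60.03 ± 1.71 CPM in Control-Veh and 60.1 ± 2.69 in HFpEF-Veh (log2 difference 0.0023, adjusted p = 0.980).

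After TYA-018, 6 tubulins were lower than in HFpEF-Veh: Tuba1a, Tuba1c, Tubb2a, Tubb2b, Tubb5 and Tubb6. None of the 10 genes was called higher. Over all genes tested, 19.3% were called in this comparison, 10.4% lower and 8.93% higher. The median log2 fold change of the 10 genes was -0.28, against 0.00 over all genes tested. In 7 of the 10 genes every HFpEF-TYA-018 library was below every HFpEF-Veh library, which held for 13.1% of all genes. Counting both directions, 25.1% of all genes did not overlap between these groups. The forest plot of fold changes sets the 3 comparisons side by side.

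**Figure D2:**
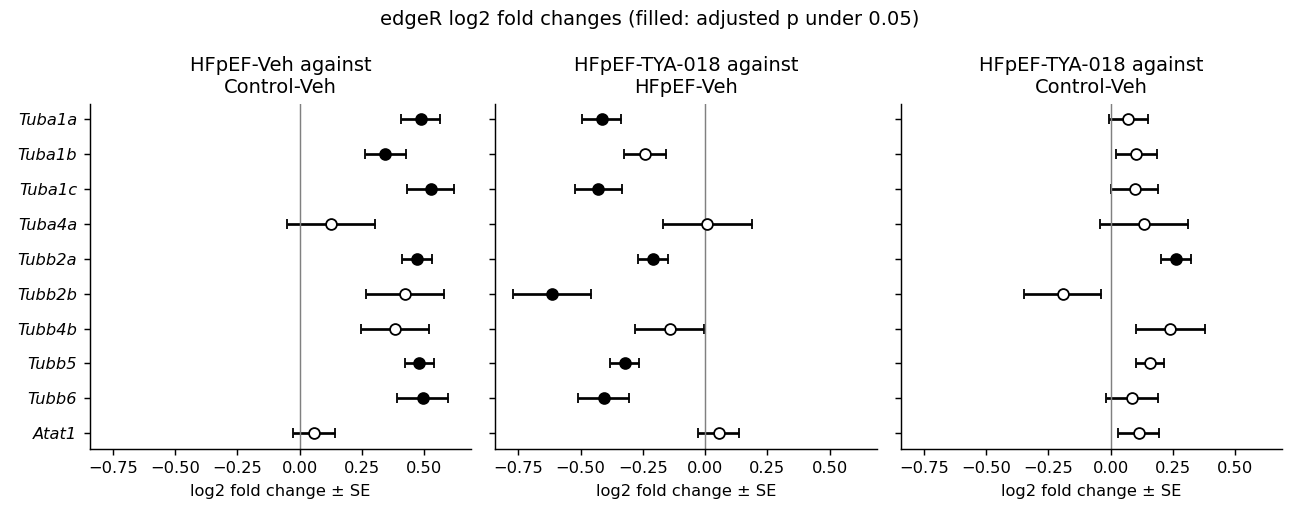
edgeR log2 fold change (horizontal axis) of each of the 10 genes in the 3 comparisons, with bars of ± 1 SE; filled points passed an adjusted p under 0.05. The called tubulins lay between 0.34 and 0.53 in the first comparison and between -0.62 and -0.21 in the second, and the HFpEF-Veh libraries enter both; only Tubb2a was called in the third.

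Tuba1a was at 75.2, 83.8, 89.4 and 80.9 CPM in T1 to T4, below all 4 HFpEF-Veh libraries, and was 0.749 times the HFpEF-Veh level (log2 fold change -0.42 ± 0.08 SE, adjusted p = 0.00498). Tuba1c was at 16.7, 16.9, 16.9 and 16.9 CPM, a spread far smaller than in the other groups. It was 0.743 times the HFpEF-Veh level (-0.43 ± 0.09, adjusted p = 0.00935). Tuba1b was at 117, 110.4, 102 and 113 CPM. All 4 libraries were below those of HFpEF-Veh, but the difference missed the threshold (-0.24 ± 0.08, adjusted p = 0.0624), while DESeq2 called it (adjusted p = 0.0248). Tuba4a was at 362, 319.7, 258 and 304 CPM, above and below the HFpEF-Veh libraries (0.01 ± 0.18, adjusted p = 0.977). Its sign turned when T1, T2 or V1 was left out.

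Tubb5 was at 79.7, 87.3, 83.6 and 84.3 CPM after TYA-018, lower in 4 of 4 libraries than any HFpEF-Veh library. It was 0.799 times the HFpEF-Veh level (log2 fold change -0.32 ± 0.06 SE, adjusted p = 0.00386). Tubb6 was at 11.4, 11.9, 11.7 and 10.6 CPM and 0.754 times the HFpEF-Veh level (-0.41 ± 0.10, adjusted p = 0.0183). Tubb2b was at 2.49, 3.17, 2.74 and 2.53 CPM, also below every HFpEF-Veh library. It had the largest difference of the 10 genes, at 0.652 times the HFpEF-Veh level (-0.62 ± 0.16, adjusted p = 0.0185), on 165 to 314 counts per library over all groups.

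Tubb2a was at 38.8, 41.5, 39.1 and 37.2 CPM and 0.864 times the HFpEF-Veh level (log2 fold change -0.21 ± 0.06 SE, adjusted p = 0.0293). Its libraries lay between those of Control-Veh and HFpEF-Veh, with no overlap with either. Tubb4b was at 223, 199, 180.2 and 193 CPM, with T1 inside the range of HFpEF-Veh (-0.14 ± 0.14, adjusted p = 0.500). Atat1 was at 5.76, 5.08, 5.48 and 5.39 CPM (0.05 ± 0.08, adjusted p = 0.689). Neither gene showed a difference beyond the spread between libraries. Hdac6 was called higher after TYA-018 (log2 fold change 0.26, adjusted p = 0.0486), at 13.97 ± 1.511 CPM. The adjusted p was just under the threshold, and the groups overlapped, since T4 lay below V1. Whether the call of Hdac6 holds in other settings or with a library left out was not tested.

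Of the 6 calls after TYA-018, 3 held when any of the 8 libraries was left out (Tuba1a, Tuba1c and Tubb5). The call of Tubb2a was lost without V2, V4, T1, T3 or T4, with adjusted p from 0.0290 to 0.0753 over the 8 fits. That of Tubb2b was lost without V3 or T1 (0.0218 to 0.0595) and that of Tubb6 without V3 (0.0258 to 0.0532). The count was lowest, at 4, without V3 or without T1.

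The second comparison also depended on the unit. With limma on log2(TPM + 1), which uses the deposited effective lengths and leaves mitochondrially encoded genes in the total, none of the 10 genes was called in any comparison. The median of all genes then stood at 0.17 after TYA-018, and the log2 differences of Tuba1b (0.17), Tubb2a (0.24) and Tubb4b (0.43) turned positive. Tuba1a (-0.05), Tuba1c (-0.02), Tubb2b (-0.04), Tubb5 (-0.30) and Tubb6 (-0.05) stayed negative. These 5 genes lay below the median of all genes, and the other 5 lay above it. T1 had the highest TPM of all 12 libraries for Tuba1b, Tubb2a and Tubb4b (31.9, 19.1 and 58.6 TPM), and also for Tuba1a, Tuba4a and Atat1. Once mitochondrially encoded genes were removed and TPM rescaled, 8 of the 10 genes lay below the median of all genes, and Tubb2a (0.0074) and Tubb4b (0.19) were positive. The lower levels after TYA-018 thus passed the test on counts only, and on log2(TPM + 1) before that rescaling the negative values of Tuba1a, Tuba1c, Tubb2b and Tubb6 were smaller in size than their SE.

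With the deposited lengths as offset in edgeR, 3 genes were called lower after TYA-018 (Tuba1a, Tubb5 and Tubb6), and Tuba4a (-0.19), Tubb4b (0.0016) and Atat1 (-0.06) changed sign without a call. All 6 calls in HFpEF-Veh against Control-Veh held with this offset. On log2(TPM + 1) all 10 genes were positive in HFpEF-Veh against Control-Veh but none was called, and 1 (Tuba1a) was called after the rescaling without mitochondrially encoded genes. The heat map of alternatives gives the value of each gene.

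**Figure D3:**
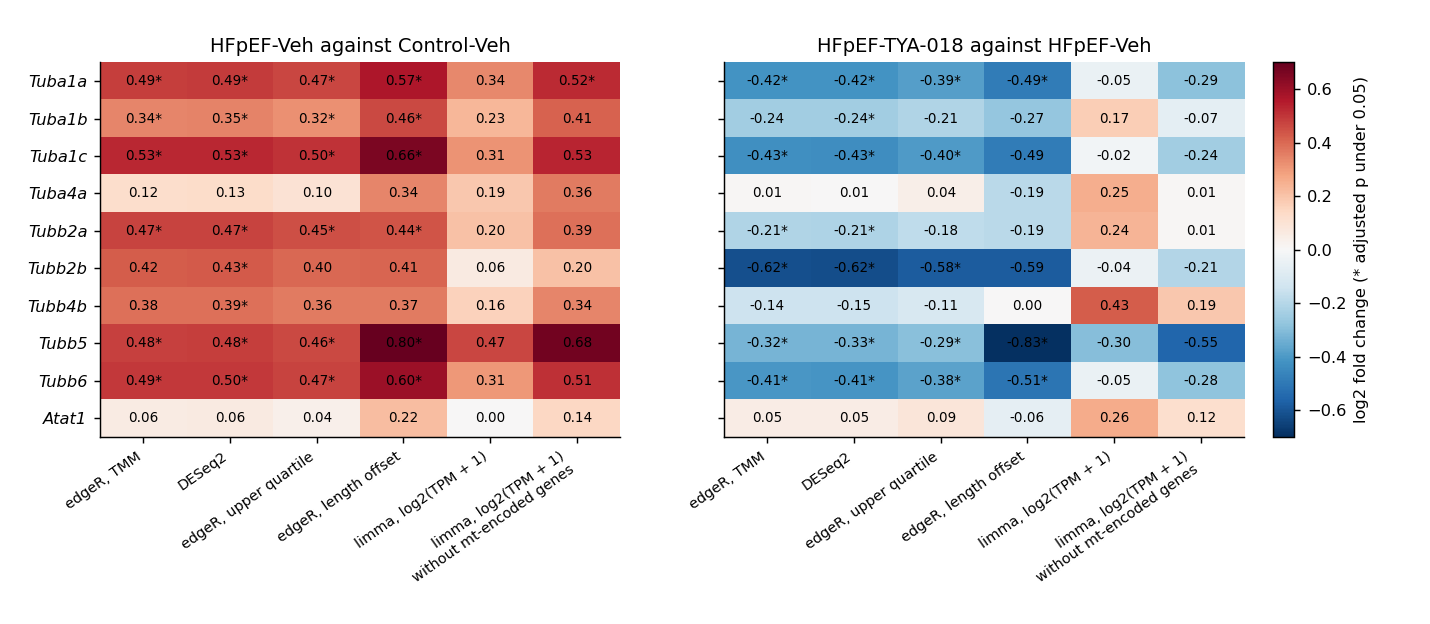
log2 fold change of the 10 genes (rows; colour and printed value) under 6 ways of scaling and testing (columns), for the first and second comparisons; an asterisk marks an adjusted p under 0.05 over all genes tested. The first comparison is positive throughout, whereas after TYA-018 Tuba1b, Tubb2a and Tubb4b turn from negative to positive on log2(TPM + 1).

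Comparing HFpEF-TYA-018 with Control-Veh, 1 of the 10 genes was called, against 5.86% of all genes (3.12% higher and 2.74% lower). This was Tubb2a, at 39.1 ± 1.75 CPM against 32.7 ± 2.09 CPM (1.20-fold higher, log2 fold change 0.26 ± 0.06 SE, adjusted p = 0.0287). Its call was lost without C2, C4, T1, T2 or T3, with adjusted p up to 0.0847 over the 8 fits. Tubb5 was next, with all 4 treated libraries above all 4 Control-Veh libraries but an adjusted p of 0.129 (0.16 ± 0.06). Groups did not overlap for these 2 of 10 genes, against 7.76% of all genes higher and 7.05% lower without overlap (14.8% in all). The other 8 genes had log2 differences from -0.19 (Tubb2b) to 0.24 (Tubb4b) and adjusted p from 0.335 to 0.712. Missing the threshold does not show that these levels were equal. The plot of CPM shows that the treated libraries overlapped the Control-Veh libraries in those 8 genes.

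Levels of different genes can be compared only per length. By TPM, Tuba4a was the most abundant of the 10 genes, with a median over the 12 libraries of 148 TPM (range 82.9 to 269). Tubb4b followed at 26.3 TPM, then Tuba1a at 19.2, Tuba1b at 17.2, Tubb2a at 10.5 and Tubb5 at 5.04. Tubb6 was at 3.63, Tuba1c at 2.44, Atat1 at 1.86 and Tubb2b at 0.414 TPM. Neighbours Tuba1a and Tuba1b overlapped in range (15.1 to 24.8 and 14.8 to 31.9 TPM), as did Tubb6 and Tuba1c (2.62 to 5.45 and 1.93 to 4.03 TPM). Tuba4a lay above every other gene in each library.

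This order rests on the deposited effective lengths, which differ from the annotation for several isotypes. The annotation compared here was GENCODE M21, an earlier release than the one named in the published methods. For Tubb5 they ran from 3984 to 7741 bases, against a longest annotated transcript of 2649 bases, and for Tubb4b from 1915 to 2916 against 1598. For Tuba4a they were 583 to 828 bases, against 2840. Dividing CPM by the longest annotated transcript instead put Tubb4b first (median 127 CPM per kb) and Tuba4a next (109), with Tubb5 (31.7) above Tubb2a (24.2). The place of Tuba4a above Tubb4b therefore changed with the length used. Tubb2b was the lowest and Atat1 the next lowest on both scales.

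Within each family the make-up was summarised as the share of each isotype. Of the TPM of all 8 alpha-tubulin genes, Tuba4a held 75.0 ± 5.35% in Control-Veh, 73.3 ± 1.02% in HFpEF-Veh and 75.6 ± 1.87% after TYA-018 (mean ± SD, n = 4). The median share over the 12 libraries was 9.18% for Tuba1a and 9.19% for Tuba1b. Of the TPM of all 8 beta-tubulin genes, Tubb4b held 54.6 ± 4.70%, 51.9 ± 1.80% and 58.8 ± 3.25% in the 3 groups, in the same order. Tubb5 held 10.9 ± 1.98%, 13.6 ± 3.33% and 8.78 ± 0.646%, and Tubb2a 23.3 ± 2.55%, 23.0 ± 2.65% and 22.9 ± 1.46%. These shares are descriptions and were not tested. By estimated counts the median share of Tubb5 over the 12 libraries was 25.7% and that of Tuba4a was 46.3%, so both depend on the length correction.

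**Figure D4:**
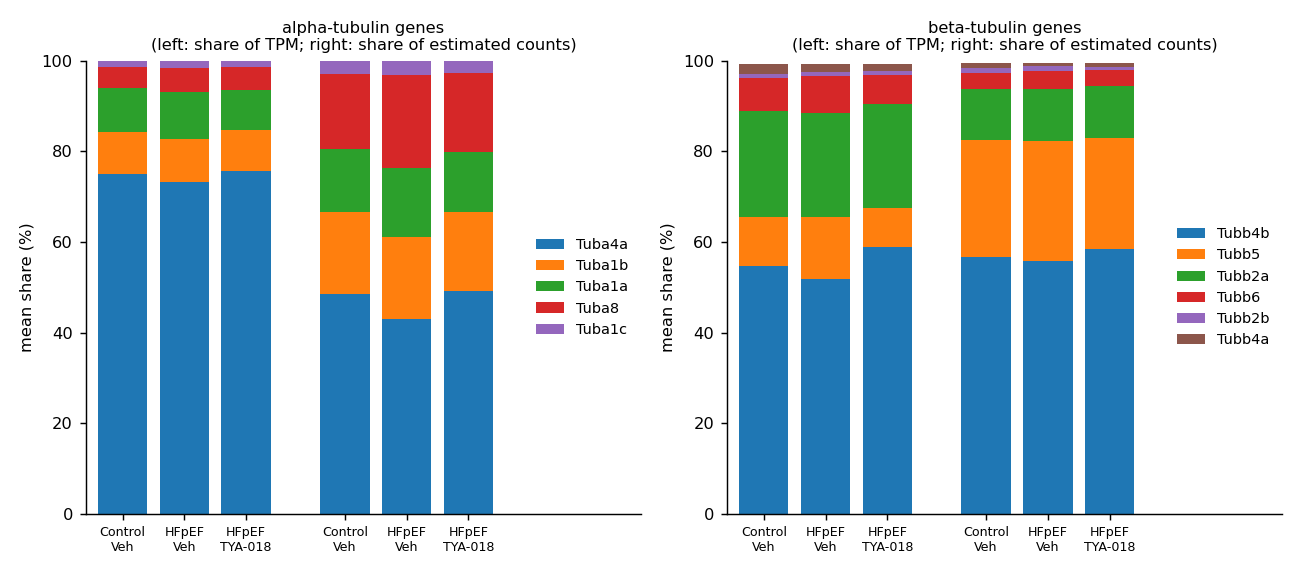
Mean share (%, n = 4 per group) of each isotype in the summed alpha-tubulin (left panel) and beta-tubulin (right panel) level, by TPM (left 3 bars) and by estimated counts (right 3 bars); isotypes with under 1% on both scales are not drawn. Tuba4a held 73.3% to 75.6% of alpha TPM on average, and Tubb4b 51.9% to 58.8% of beta TPM.

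Across the 12 libraries, Pearson's r of log2 CPM between pairs of the 9 tubulins ranged from 0.33 to 0.94 with a median of 0.79 (36 pairs). Atat1 correlated with the tubulins at -0.09 to 0.29. Tuba4a was closest to Tubb4b (r = 0.83), and in both genes C1 and C2 lay below C3 and C4. The same held in the rest of these 9 tubulins except Tubb2a. The values share libraries, groups and, for the near-identical isotypes, reads, so r is a description. Searched over all 14323 other genes tested, the gene most like Tubb5 was Tagln2 (r = 0.97), which encodes an actin-binding protein. The gene most like Tuba1a was Ret (r = 0.97), a receptor tyrosine kinase. Tuba1b was closest to Tuba8 (0.93), Tuba1c to Bean1 (0.96), Tubb2a to Slc35a4 (0.93), Tubb2b to Caskin2 (0.93) and Tubb6 to the homeobox gene Meox1 (0.92).

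Of the other tubulin genes, 9 of 11 were tested. Tuba8, an alpha isotype known from striated muscle, was higher in HFpEF-Veh, from 96.3 ± 21.6 to 147 ± 9.10 CPM (log2 fold change 0.61, adjusted p = 0.01002). After TYA-018 it was at 110.1 ± 11.5 CPM, below every HFpEF-Veh library (-0.42, adjusted p = 0.0521). Tubd1, the delta-tubulin of centrioles, was higher after TYA-018 (0.47, adjusted p = 0.0364). Tubg1, the gamma-tubulin that starts new microtubules, was at 17.2 ± 1.03 CPM in Control-Veh, 17.8 ± 0.583 in HFpEF-Veh and 18.2 ± 1.32 after TYA-018. Tubb3 and Tubb4a, isotypes of neurons, were at means of 0.921 to 1.16 CPM and 3.06 to 3.35 CPM and were called in no comparison, and neither were Tubb1, Tuba3b, Tubg2 and Tube1.

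Genes that act on tubulin or microtubules were called in both directions. The counts of the lists that follow are to be read against the 21.2% of all genes called in HFpEF-Veh against Control-Veh and the 19.3% called after TYA-018. The list of tubulin folding and dimer assembly held prefoldin, the chaperonin CCT, the tubulin cofactors and Arl2. Tbcel and Ttc5 were counted in this list too, although its name does not describe what they do. Of its 22 tested genes, none was called higher and 1 lower in HFpEF-Veh, the prefoldin subunit Pfdn6 (log2 fold change -0.48, adjusted p = 0.0161). After TYA-018, 2 were called higher, the CCT subunits Cct4 (0.27, adjusted p = 0.00721) and Cct8 (0.23, adjusted p = 0.0403), and none lower. The list's median was -0.09 in the first comparison and 0.15 in the second. Of 4 tested genes that add or remove the final tyrosine of alpha-tubulin, none was called in any comparison. Of 10 tested genes of glutamylation and glycylation, the glutamylase Ttll7 was higher in HFpEF-Veh (0.66, adjusted p = 0.00313) and lower after TYA-018 (-0.78, adjusted p = 0.00202). Ttll1 (-0.55, adjusted p = 0.00644) and Ttll4 (-0.49, adjusted p = 0.00842) were lower in HFpEF-Veh.

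Of 29 microtubule-associated and end-binding proteins tested, 3 were called higher and 4 lower in HFpEF-Veh, and 4 higher and 2 lower after TYA-018, shares near those of all genes. Among the called genes, Mapre1, the plus-end protein EB1, was higher in HFpEF-Veh (log2 fold change 0.35, adjusted p = 0.000990) and lower after TYA-018 (-0.24, adjusted p = 0.00721). Map7 (-0.54, adjusted p = 0.00441) and Clasp2 (-0.39, adjusted p = 0.00788) were lower in HFpEF-Veh, and Mid1ip1 was higher after TYA-018 (0.42, adjusted p = 0.00485). Of 12 severing and destabilising proteins, 3 were higher and 1 lower in HFpEF-Veh, and 1 higher and 2 lower after TYA-018. The mitotic depolymerase Kif2c rose from 0.0676 ± 0.0291 to 0.908 ± 0.420 CPM (adjusted p = 0.000922) and was at 0.321 ± 0.131 CPM after TYA-018 (adjusted p = 0.0353). The severing enzyme Fign was lower in HFpEF-Veh (-0.59, adjusted p = 0.00511) and higher after TYA-018 (0.49, adjusted p = 0.0145). Stmn1 was higher in HFpEF-Veh (0.60, adjusted p = 0.0322) and Stmn2 lower after TYA-018 (-0.48, adjusted p = 0.0320), and both encode proteins that sequester tubulin dimers.

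Of 21 transport motor genes, 3 were called higher and 1 lower in HFpEF-Veh, and 1 higher and 2 lower after TYA-018, which is no more than the share of all genes. Among the called genes, Kif5b, the widespread kinesin-1 heavy chain, was higher in HFpEF-Veh (log2 fold change 0.44, adjusted p = 0.0274) and lower after TYA-018 (-0.49, adjusted p = 0.0190). The dynein chain Dync1i2 moved likewise (0.17, adjusted p = 0.0370, and -0.19, adjusted p = 0.0238). Kif3a was lower in HFpEF-Veh (-0.40, adjusted p = 0.0189) and the dynactin gene Dctn2 was higher after TYA-018 (0.25, adjusted p = 0.0225).

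**Figure D5:**
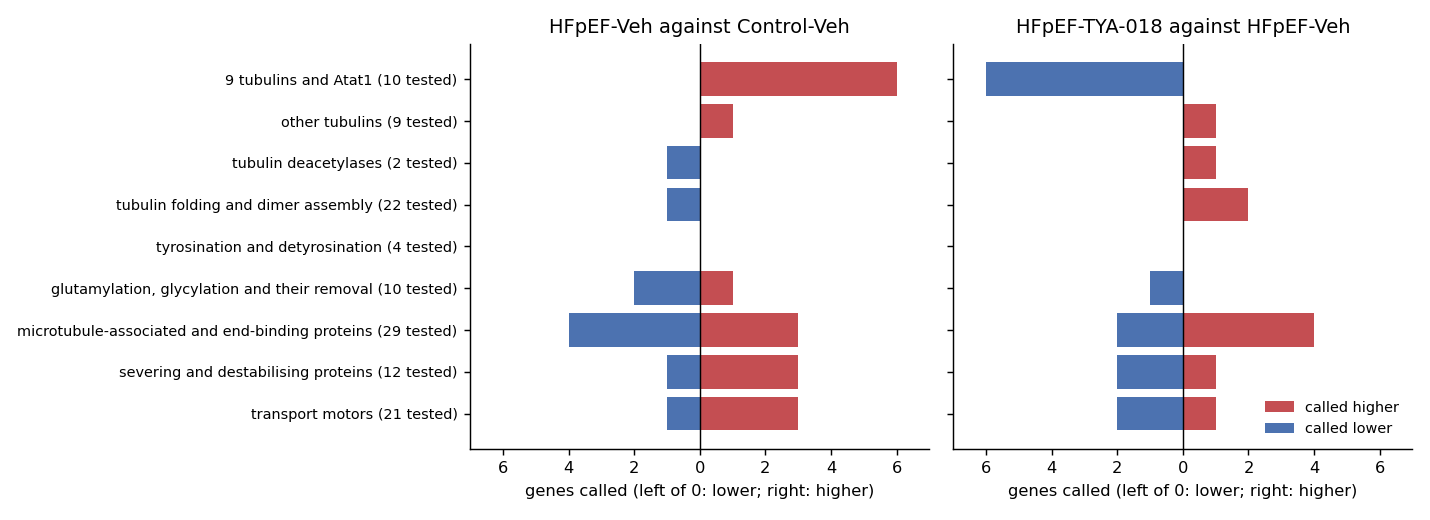
Number of genes called at an adjusted p under 0.05 (horizontal axis; blue bars left of 0 lower, red bars right of 0 higher) in the 10 genes described and in 8 lists of related genes, in the first and second comparisons. The 10 genes hold 6 calls higher in HFpEF-Veh and 6 calls lower after TYA-018, and the HFpEF-Veh libraries enter both.

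Tubulins are expressed in all cells of the ventricle, and in bulk tissue fewer cells of a type and less RNA per cell cannot be told apart. Markers of several cell types moved in the same directions as the called tubulins. Cycling-cell genes were called higher in HFpEF-Veh for 10 of 10, with a summed level of 5.54 to 8.31 CPM in Control-Veh, 20.7 to 53.3 in HFpEF-Veh and 9.56 to 17.6 after TYA-018, where 7 of 10 were called lower. Macrophage markers were higher for 5 of 5 (95.3 to 125, 148 to 196 and 109 to 134 CPM in the same order), with 2 called lower after TYA-018. Fibroblast markers were higher for 4 of 7 (426 to 640, 655 to 907 and 425 to 615 CPM), with 5 called lower after TYA-018. Endothelial markers were higher for 3 of 6 (1288 to 1483, 1490 to 1811 and 1205 to 1460 CPM) and 4 were called lower after TYA-018. Their part in the tubulin differences was not tested.

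Red cell genes were higher in HFpEF-Veh for 6 of 6 and lower after TYA-018 for 6 of 6, with summed levels of 1554 to 2310 CPM in Control-Veh, 4788 to 14149 in HFpEF-Veh and up to 3572 after TYA-018. Smooth muscle and pericyte markers were higher for 1 of 6 and lower after TYA-018 for 1 of 6, and platelet and neuron or Schwann cell markers were higher for 1 of 5 each, with none called after TYA-018. Of 7 cardiomyocyte markers, 5 were lower and 1 higher in HFpEF-Veh and 2 were higher after TYA-018, with summed levels of 25244 to 34400, 23764 to 25568 and 26691 to 29167 CPM in the 3 groups. Muscle transcripts were thus abundant in every library. Atrial muscle markers summed to 1.94 to 2.92 CPM and fat cell markers to 0.0152 to 1.14 CPM over all libraries, with none of either list called and 2 of 5 fat markers at 0 in every HFpEF-Veh library. The part of red cells and of muscle RNA in the tubulin differences was likewise not tested.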

How the data were processed

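Poly(A) RNA of 12 left ventricles was sequenced from a stranded mRNA kit. Per the published methods, the authors trimmed reads with fastp and quantified them with Salmon (version 1.6.0 in the submitters' processing notes). The reference was mouse GENCODE transcripts of a later release than the M21 used here. Corrections for sequence, GC and position bias were switched on, and values were summed per gene with tximport. The authors then analysed protein-coding genes on log2(TPM + 1), with TPM rescaled after mitochondrial genes were left out. The submitters' notes name the build hg38, although all gene names are those of mouse. The deposited tables held, for each gene and library, the estimated count (not normalised), the deposited TPM, and another value, the deposited effective length in bases. All columns were used (0 left out). The labels and the published methods differ on read length and layout, which the tables cannot resolve.

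Rounded counts entered edgeR 4.0.16 (R 4.3.3) after filterByExpr (14333 genes, 99.98% of counts) and TMM scaling, in 1 quasi-likelihood model of all groups (residual degrees of freedom: 9). Tests were two-sided, with Benjamini-Hochberg adjustment and a threshold of 0.05. The fits were first tested on simulated counts with known changes. Alternatives were DESeq2 1.42.0, upper-quartile scaling, removal of mitochondrially encoded and globin genes, no filter, 2 groups alone, lengths as offset, limma 3.58.1 on log2(TPM + 1) and log2(TPM + 0.1), and leaving out each library. The edgeR p-values set the difference between groups against the spread between mice within groups, estimated over all libraries and moderated across genes.

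The 10 genes and all lists were chosen with earlier results of these data known. All 10 were named with every library's value, and from other lists at most 4 called genes with the smallest p. All other tubulins and deacetylases tested could also be named. Sequences came from GENCODE M21 transcripts (GRCm38) and RefSeq promoters (GRCm38.p6), and runs of 31 bases were compared between all transcripts on the same strand. Some sequences are not reported here.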

Additional observations from a re-analysis of the deposited data

How the results depend on the processing

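No paired analysis was possible because each mouse number occurs in a single group. The counts of genes called stayed within 1.5 times the reported 6, 6 and 1 (in the order V against C, T against V, T against C) with DESeq2, upper-quartile scaling, no mitochondrially encoded or globin genes, no filter and the 2 groups alone. With the deposited lengths as offset the counts were 6, 3 and 0. With limma on log2(TPM + 1), on log2(TPM + 0.1) and on log2(TPM + 1) with no filter they were 0, 0 and 0, and on TPM rescaled without mitochondrially encoded genes 1, 0 and 0. Of the scales used here, the rescaled TPM is the closest to that of the published methods, so most calls were lost on it. Leaving out each library gave 6 to 8, 4 to 6 and 0 to 1. The cause of these changes was not tested. The smallest members rested on 165 counts (Tubb2b) and 278 counts (Atat1) in a library, which limits their precision.

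Directions turned after TYA-018 for Tuba1b (0.17 on log2(TPM + 1), with or without the filter, and 0.18 on log2(TPM + 0.1)), for Tubb2a (0.24, 0.25 and, rescaled, 0.0074) and for Tubb4b (0.43, 0.44, rescaled 0.19, and 0.0016 with the length offset). The length offset also turned Tuba4a (-0.19) and Atat1 (-0.062) after TYA-018 and Tubb5 against Control-Veh (-0.023). Tuba4a after TYA-018 ran from -0.072 to 0.089 over the fits without 1 library. Tubb2b against Control-Veh turned on log2(TPM + 1), with or without the filter (0.022), and on log2(TPM + 0.1) (0.054). Atat1 in HFpEF-Veh turned on log2(TPM + 0.1) (-0.0072). None of the turned values was called. The median of all genes on log2(TPM + 0.1) stood at -0.17, 0.34 and 0.17 in the 3 comparisons.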
